A study of Homo sapiens with 6 samples.

Results

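The genes described here are 9 members of the plasminogen activation system and of the clade B serpins, out of 58735 genes in the count table. They are *PLAU*, *PLAUR*, *PLAT*, *SERPINE2*, *SERPINB2*, *SERPINB1*, *SERPINB5*, *SERPINB6* and *SERPINB8*, matched by gene name. The genes were listed by known role, and the family was selected on its read counts in ABS against Ctrl libraries, the same values given below. Their differences after exposure are therefore a description, with no test drawn from them. They were measured in OE33, an established epithelial cell line from a human esophageal adenocarcinoma. The exposed group was held for 20 min in unsupplemented medium at pH 4.0 with 200 µM acidified bile salts (ABS), then washed and left in complete medium for 6 h. The control group (Ctrl) was untreated. Each group held 3 biological replicates, all cells of 1 line, and no group received a single part of the exposure (acid, bile salts or the unsupplemented medium) by itself.

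Plasminogen activators are serine proteases that cut plasminogen into plasmin, a broad protease that degrades fibrin and pericellular matrix. *PLAU* encodes the urokinase type (uPA), which works at the cell surface bound to its receptor uPAR, the product of *PLAUR*, and *PLAT* encodes the tissue type (tPA). Serpins inhibit proteases by presenting a reactive loop as bait and trapping the enzyme that cuts it. *SERPINB2* encodes plasminogen activator inhibitor 2 and *SERPINE2* encodes protease nexin 1, and both can inhibit uPA. Clade B serpins mostly lack a classical signal peptide and act largely inside cells.

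*SERPINB2* showed the largest difference of the 9 genes, 3.45-fold higher after ABS. *SERPINB8*, *PLAUR* and *PLAU* were 1.67-fold, 1.45-fold and 1.29-fold higher, and in these 4 genes all ABS libraries lay above all Ctrl libraries. Of all tested genes, 7.57% were separated in that direction. *SERPINB5* was 1.22-fold higher with overlapping groups. *PLAT*, *SERPINE2*, *SERPINB1* and *SERPINB6* had log2 fold changes between −0.07 and 0.09. *SERPINB2* was the only member past the threshold over all genes, where 0.37% of all tested genes were called higher.

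Promoter sequences are shown for *PLAU*, *PLAUR*, *SERPINB2* and *SERPINB8* because their groups did not overlap. Each runs from 250 bases before to 50 bases after the RefSeq start, 5′ to 3′ on the gene's strand (GRCh38.p14). Capitals mark matches to the AP-1 motif TGANTCA, where N is any base. The windows are chr10:73910360-73910659 (plus strand), chr19:43670120-43670419 (minus strand), chr18:63887455-63887754 (plus strand) and chr18:63969831-63970130 (plus strand).
PLAU: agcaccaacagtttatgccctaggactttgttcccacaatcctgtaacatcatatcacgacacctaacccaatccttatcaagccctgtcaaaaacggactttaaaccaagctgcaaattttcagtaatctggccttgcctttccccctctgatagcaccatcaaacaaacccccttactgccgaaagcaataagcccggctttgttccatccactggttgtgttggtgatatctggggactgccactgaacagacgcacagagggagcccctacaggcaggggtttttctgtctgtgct
PLAUR: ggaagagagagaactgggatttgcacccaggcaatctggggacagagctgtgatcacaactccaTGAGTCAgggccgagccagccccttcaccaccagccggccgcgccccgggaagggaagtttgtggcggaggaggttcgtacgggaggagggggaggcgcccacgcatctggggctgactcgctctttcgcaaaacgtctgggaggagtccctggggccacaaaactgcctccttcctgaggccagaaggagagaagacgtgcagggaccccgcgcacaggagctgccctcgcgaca
SERPINB2: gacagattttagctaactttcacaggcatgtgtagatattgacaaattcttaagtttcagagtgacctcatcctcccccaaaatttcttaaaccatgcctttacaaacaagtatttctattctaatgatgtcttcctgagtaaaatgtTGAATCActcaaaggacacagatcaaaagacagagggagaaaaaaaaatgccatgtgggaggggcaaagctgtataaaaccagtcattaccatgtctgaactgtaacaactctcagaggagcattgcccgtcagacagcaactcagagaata
SERPINB8: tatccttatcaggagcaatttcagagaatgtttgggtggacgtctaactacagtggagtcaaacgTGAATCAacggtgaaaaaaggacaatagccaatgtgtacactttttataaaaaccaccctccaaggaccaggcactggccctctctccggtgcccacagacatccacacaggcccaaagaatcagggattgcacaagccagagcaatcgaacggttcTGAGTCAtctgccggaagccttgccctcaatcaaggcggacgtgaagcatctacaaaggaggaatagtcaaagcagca

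The AP-1 motif reads the same on both strands. It was found in the windows of *PLAUR*, *SERPINB2*, *SERPINB5* and *SERPINB8*, 4 of the 8 members with a sequence, and *SERPINB8* held it at 2 places. Of 27305 promoters of the same length, 7.76% held it. The first base of the match lay 186 bases before the start in *PLAUR*, 102 in *SERPINB2* and 146 in *SERPINB5*. In *SERPINB8* the matches began 185 and 28 bases before the start. The *PLAU* window held no match, and neither did those of *SERPINE2*, *SERPINB1* and *SERPINB6*. TGACGTCA, the CRE motif, and the NF-kB motif were in 0 of the 8 windows, against 1.98% and 5.72% of all promoters. TGACNNNGC, the core of the antioxidant response element, can overlap TGANTCA but did not do so here. It was in the *PLAU*, *SERPINE2* and *SERPINB1* windows, and in 13.6% of all promoters. GCGTG, the core of the xenobiotic response element, was in 4 of the 8 windows (*PLAUR*, *SERPINB1*, *SERPINB5* and *SERPINB6*) and in 36.3% of all promoters. TGCNCNC, a looser form of the core of the metal response element, was in 4 of the 8 (*PLAUR*, *SERPINE2*, *SERPINB6* and *SERPINB8*) and in 55.2% of all promoters. A match to this looser form need not hold the core itself. GCGTG and TGCNCNC can overlap but did not do so in these windows. These 6 motifs were all that were searched, and no share was tested. Searches covered both strands, and a match is a description of letters, not of binding. The RefSeq starts of the 4 genes shown lie inside their annotated spans, so other annotated transcripts begin further upstream.

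The 6 libraries held between 22145676 and 25235686 counts. Levels are CPM, counts relative to a common library size, after TMM scaling (scaled CPM). A library with a count of 0 could still hold up to 3 counts, which equalled 0.118 to 0.136 CPM. Such limits cover counting error only. Of 13768 tested genes, 60 passed edgeR's quasi-likelihood test at a Benjamini-Hochberg adjusted p under 0.05, with 51 higher and 9 lower after ABS. In both groups, replicate 3 stood apart from replicates 1 and 2. A chi-square statistic on counts, per degree of freedom, was 7.14 between ABS replicate 3 and Ctrl replicate 3, 4.88 between ABS replicates 1 and 2 and 4.93 between Ctrl replicates 1 and 2, while the other pairs had values of 14.7 to 20.4. Epithelial identity was clear, with *KRT19* at 10589, 11002 and 10625 CPM in ABS libraries and 11795, 12205 and 10057 CPM in Ctrl libraries. *PTPRC*, the pan-leukocyte marker, and *COL1A2*, a fibroblast collagen, had 0 counts in every library, and the 6 endothelial markers together reached at most 0.340 CPM. The 8 immune markers summed to between 18.7 and 22.3 CPM in ABS libraries and between 21.3 and 22.6 CPM in Ctrl libraries. The 7 fibroblast markers summed to between 2.67 and 4.11 CPM in ABS libraries and between 2.82 and 3.14 CPM in Ctrl libraries.

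**Figure D1:**
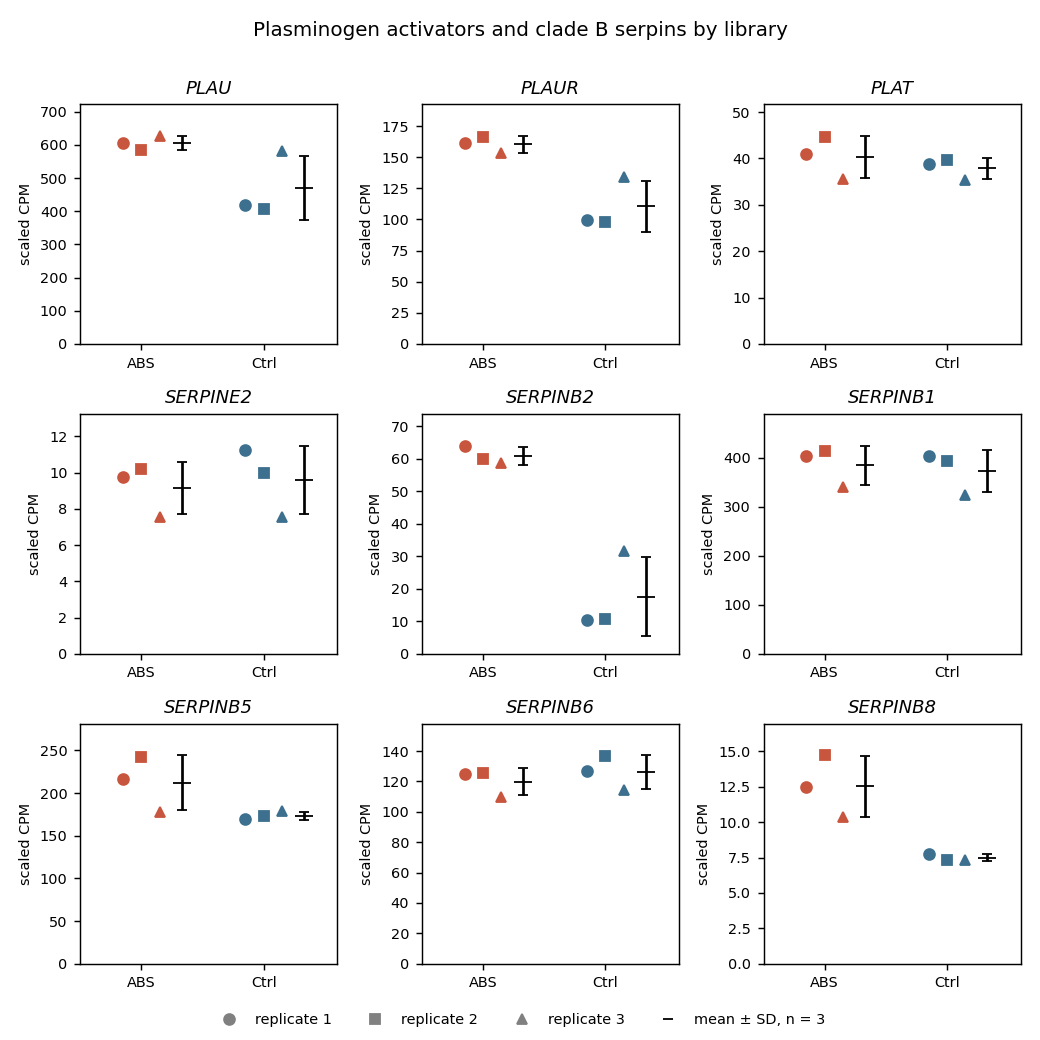
Scaled CPM of the 9 genes in each library, ABS left and Ctrl right, with symbols for the replicates and bars for the mean ± SD (n = 3 per group). In *PLAU*, *PLAUR* and *SERPINB2* the Ctrl replicate 3 triangle lies above the other Ctrl points, and *SERPINB2* shows the widest gap between groups.

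All 9 members passed the filter on low counts. Of these, 1 was called, *SERPINB2*, higher after ABS, where 0.37% of all tested genes were called in that direction and 0.436% in either. The ABS values lay wholly above the Ctrl values in 4 of the 9, where 7.57% of all tested genes did so, and in 0 of the 9 wholly below, where 6.95% did. None was called lower, where 0.0654% of all tested genes were. An unadjusted p under 0.05 was found for 5 of the 9, and for 9.75% of all tested genes. The groups were apart in either direction in 14.5% of all tested genes. The median log2 fold change was 0.29 over the members and 0.00 over all tested genes. Other fits of the same libraries called other numbers of members. DESeq2 called 3 of the 9 (*PLAUR*, *SERPINB2* and *SERPINB8*) where 1.92% of genes passed, and limma-voom called *SERPINB2* alone where 0.45% passed. With a term that set replicate 3 apart, *PLAU*, *PLAUR*, *SERPINB2* and *SERPINB8* were called where 3.38% of genes passed. The same 4 were called without Ctrl replicate 3, where 3.1% of genes passed. Within replicates 1 and 2 these 4 and *SERPINB5* were called, where 13.2% of genes passed. Nothing is read from these counts, since the same comparison was known when the genes were chosen. In bulk RNA, a difference in RNA per cell cannot be told apart from a difference in the share of cells that express a gene.

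Among the activators, *PLAU* (ENSG00000122861, chromosome 10, 73909177 to 73917497, plus strand) was the most abundant. It measured 606, 584 and 628 CPM in ABS replicates 1, 2 and 3, against 421, 408 and 582 CPM in Ctrl replicates 1, 2 and 3. Its ABS libraries were close together and all above Ctrl, but Ctrl replicate 3 lay just under the lowest ABS library. The means were 606 ± 22.1 CPM after ABS and 470.4 ± 97.1 CPM in Ctrl (SD, n = 3 each), with a log2 fold change of 0.37 ± 0.12 (SE). Against Ctrl replicates 1 and 2 the ABS mean was 1.46-fold, and against Ctrl replicate 3 it was 1.04-fold. Replicates 1 and 2 taken alone differed by 0.52 on the log2 scale, and the replicate 3 libraries, 1 in each group, by 0.11. *C10orf55*, on the opposite strand, covers 916 exonic bases of *PLAU*, 31.1% of its 2950, and held between 39 and 55 counts in ABS libraries and between 26 and 47 in Ctrl libraries. Whether reads were counted by strand is not given in the sources used here.

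*PLAT* (ENSG00000104368, chromosome 8, 42175233 to 42207724, minus strand) was at 40.9, 44.6 and 35.6 CPM in ABS libraries and 38.7, 39.6 and 35.3 CPM in Ctrl libraries. The groups overlapped, and replicate 3 was the lowest in both. Its log2 fold change was 0.09 ± 0.10 (SE), and the fits that left out 1 library gave between 0.01 and 0.18. The fold changes of *PLAU* and *PLAT* were 1.29 and 1.07, and the difference between the genes was not tested.

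*PLAUR*, the uPA receptor gene (ENSG00000011422, chromosome 19, 43646095 to 43670547, minus strand), measured 162, 167 and 153 CPM in ABS libraries, against 99.4, 98.3 and 134 CPM in Ctrl libraries. All ABS libraries were higher, and Ctrl replicate 3 lay between the other Ctrl libraries and the ABS libraries. The means were 160.5 ± 6.84 CPM after ABS and 111 ± 20.4 CPM in Ctrl (SD, n = 3 each), a log2 fold change of 0.54 ± 0.11 (SE). It did not pass the threshold over all 6 libraries. The log2 difference was 0.73 in replicates 1 and 2 alone and 0.19 in replicate 3.

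The inhibitor gene *SERPINB2* (ENSG00000197632, chromosome 18, 63871692 to 63903890, plus strand) was at 64.0, 59.8 and 58.5 CPM in ABS libraries. In Ctrl libraries it was at 10.4, 10.6 and 31.6 CPM. The ABS libraries were tightly grouped and all higher, while Ctrl replicate 3 stood 3.001-fold above the mean of the other Ctrl libraries. The raw counts were 1589, 1369 and 1493 after ABS and 245, 234 and 764 in Ctrl. The means were 60.8 ± 2.88 CPM after ABS and 17.5 ± 12.2 CPM in Ctrl (SD, n = 3 each), and the log2 fold change was 1.79 ± 0.32 (SE). Set against Ctrl replicates 1 and 2, the ABS mean was 5.78-fold higher, and against Ctrl replicate 3 it was 1.93-fold higher. Within replicates 1 and 2 the log2 difference was 2.55, and within the replicate 3 pair it was 0.89. The log2 fold change was 2.53 without Ctrl replicate 3 and between 1.52 and 2.53 over all fits that left out 1 library. Its call ended without ABS replicate 1, ABS replicate 2, Ctrl replicate 1 or Ctrl replicate 2, and with library size alone.

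*SERPINE2* (ENSG00000135919, chromosome 2, 223975112 to 224039319, minus strand), the protease nexin gene, was scarce. It had 9.75, 10.2 and 7.53 CPM in ABS libraries and 11.3, 10.0 and 7.52 CPM in Ctrl libraries. The replicate 3 libraries were the lowest of each group and close to each other, and the groups overlapped. The log2 fold change was −0.07 ± 0.18 (SE), and leaving out single libraries gave values between −0.22 and 0.07.

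**Figure D2:**
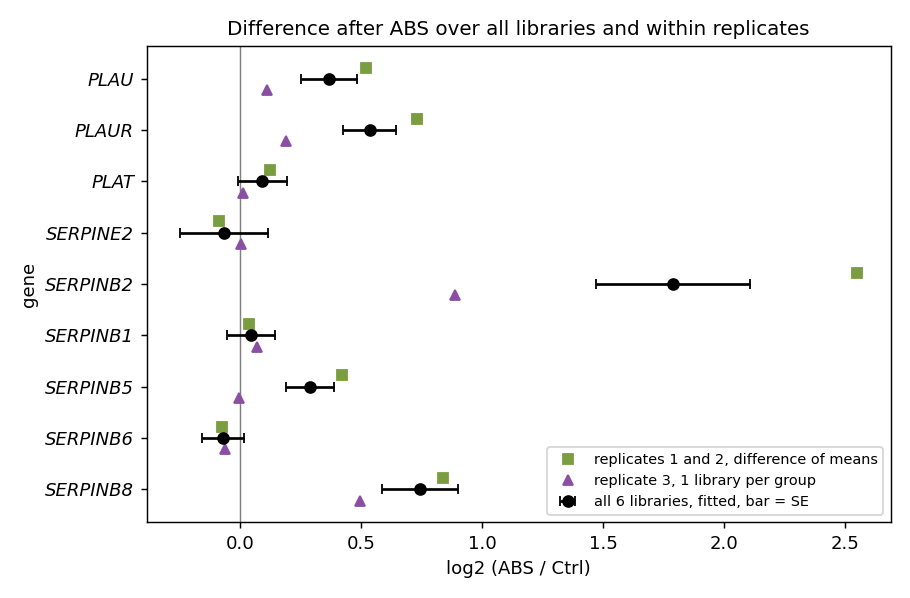
Log2 ratio of ABS over Ctrl for each gene, as fitted over all 6 libraries (black, bar = SE), within replicates 1 and 2 (green squares) and within the replicate 3 pair (purple triangles). *SERPINB2* lies at 1.79, 2.55 and 0.89, and in 8 of the 9 genes the replicate 3 difference is the smaller in size. The share of all tested genes with a smaller replicate 3 difference was not computed, so nothing is read from this count.

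*SERPINB8* (ENSG00000166401, chromosome 18, 63969925 to 64019779, plus strand) encodes a serpin that inhibits furin. It was at 12.5, 14.7 and 10.4 CPM in ABS libraries and 7.77, 7.32 and 7.36 CPM in Ctrl libraries. Unlike in *PLAU*, *PLAUR* and *SERPINB2*, Ctrl replicate 3 lay between the other Ctrl libraries, which all fell within a narrow range below the ABS libraries. The means were 12.5 ± 2.16 CPM after ABS and 7.48 ± 0.251 CPM in Ctrl (SD, n = 3 each). The log2 fold change was 0.74 ± 0.16 (SE), against a difference of 0.84 in replicates 1 and 2 alone and 0.49 in replicate 3. It did not pass the threshold over all 6 libraries. *HMSD*, on the same strand, shares 370 exonic bases with it and had at most 3 counts in any library.

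*SERPINB5* (ENSG00000206075, chromosome 18, 63476761 to 63505085, plus strand) encodes maspin, which has a serpin fold but is not known to inhibit proteases by the trapping mechanism. It was at 217, 242 and 178 CPM in ABS libraries and 169, 173 and 179 CPM in Ctrl libraries. ABS replicates 1 and 2 lay above every Ctrl library, and ABS replicate 3 lay just under Ctrl replicate 3. Its log2 fold change was 0.29 ± 0.10 (SE), against a difference of 0.42 in replicates 1 and 2 alone and −0.01 in replicate 3.

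*SERPINB1* (ENSG00000021355, chromosome 6, 2832332 to 2842006, minus strand) encodes an inhibitor of neutrophil elastase and cathepsin G. It was at 403, 413 and 339.5 CPM in ABS libraries and 403, 393 and 324 CPM in Ctrl libraries. The groups overlapped and replicate 3 was the lowest of each, with a log2 fold change of 0.05 ± 0.10 (SE). *SERPINB6* (ENSG00000124570, chromosome 6, 2948159 to 2972165, minus strand), whose product inhibits cathepsin G and trypsin-like proteases, was at 125, 125 and 109.6 CPM in ABS libraries. In Ctrl libraries it was at 127, 137 and 114 CPM. These groups overlapped too, with a log2 fold change of −0.07 ± 0.09 (SE). *SERPINB1* and *SERPINB6* therefore showed no difference larger than the spread between replicates.

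Per kilobase of exon, the order of the levels after ABS ran from *PLAU* at 205 ± 7.48 scaled CPM per kb through *SERPINB1* (125 ± 12.9), *SERPINB5* (53.8 ± 8.17), *PLAUR* (36.0 ± 1.53), *SERPINB2* (22.1 ± 1.05), *SERPINB6* (9.09 ± 0.679), *PLAT* (6.10 ± 0.689) and *SERPINB8* (2.14 ± 0.369) to *SERPINE2* (1.03 ± 0.162). No neighbours in this ABS order overlapped across the 3 libraries. In Ctrl the order was the same except that *SERPINB2*, at 6.38 ± 4.42 scaled CPM per kb, came after *SERPINB6*, at 9.54 ± 0.850. There *SERPINB2* overlapped both *SERPINB6* and *PLAT* (5.72 ± 0.344). It measured 3.79 and 3.87 scaled CPM per kb in Ctrl replicates 1 and 2, below *PLAT*, and 11.5 in Ctrl replicate 3, above *SERPINB6*. *SERPINB8* (1.28 ± 0.0428) and *SERPINE2* (1.08 ± 0.214) also overlapped in Ctrl. *PLAU* (159 ± 32.9) stood above *SERPINB1* (121 ± 14.0) in each Ctrl library. The lengths join the exons of all isoforms, 13201 bases for *SERPINB6*, so a gene with many isoforms is placed low.

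Clade B serpin genes lie in clusters, and 10 of the 13 in the table fall between *SERPINB5* and *SERPINB8* on chromosome 18. In that stretch *SERPINB12*, *SERPINB13*, *SERPINB4*, *SERPINB11*, *SERPINB3* and *SERPINB10* had 0 counts in every library. *SERPINB7* had 4, 0 and 8 counts in ABS libraries and 0, 2 and 8 in Ctrl libraries. The 3 clade B genes with appreciable counts there, *SERPINB5*, *SERPINB2* and *SERPINB8*, were thus separated by genes at or near 0. *SERPINB10* shares 547 exonic bases with *SERPINB2* on the same strand, 19.9% of the 2748 of *SERPINB2*, and how reads in shared exons were assigned is not given in the sources used here. Apart from *SERPINB10* and *HMSD*, at most 1.26% of the 50-base stretches of any member's transcripts occurred, in the same direction, in transcripts of another gene. Reverse complements were not compared, so overlap with genes on the opposite strand, such as *C10orf55* at *PLAU*, is not covered by this share.

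On chromosome 6, *SERPINB9* lies between *SERPINB1* and *SERPINB6*. It encodes the granzyme B inhibitor and was the single tested gene of the 8 other clade B serpins. It measured 83.8, 84.1 and 72.7 CPM in ABS libraries and 56.8, 57.5 and 64.6 CPM in Ctrl libraries, with no overlap. The fitted log2 difference was 0.43 ± 0.09 (SE) at an edgeR adjusted p of 0.0596, and it passed with DESeq2 but not with limma-voom. Without ABS replicate 3 or without Ctrl replicate 3 it also passed with edgeR. The flanking genes *SERPINB1* and *SERPINB6* overlapped between groups, as given above.

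**Figure D3:**
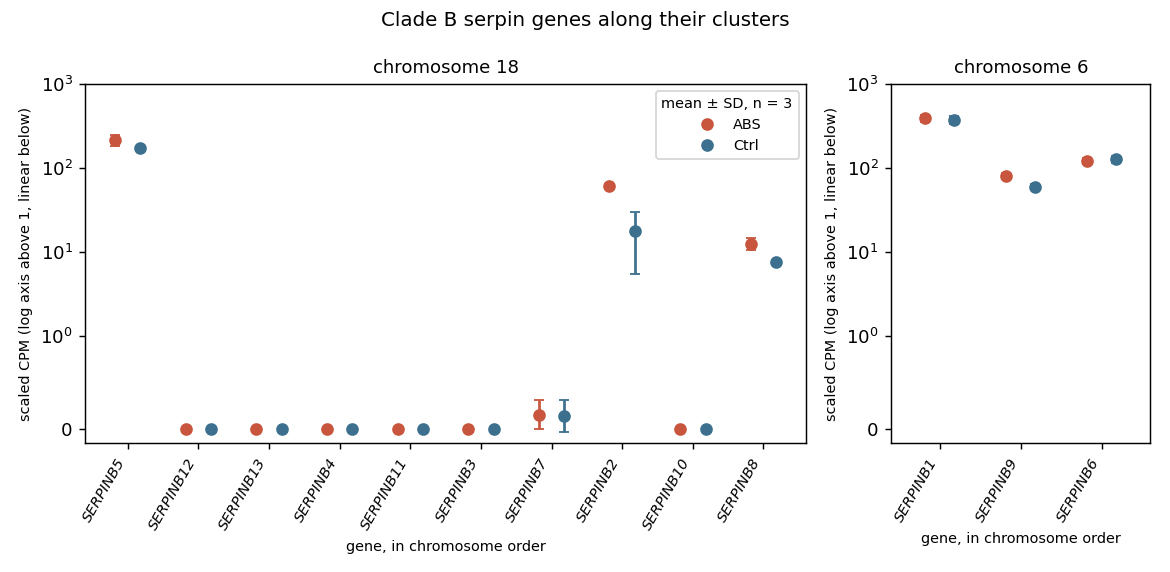
Mean ± SD of scaled CPM (n = 3 per group) for clade B serpin genes in chromosome order, on a log axis that is linear below 1. On chromosome 18, 6 of the 10 genes are at 0 in both groups, and on chromosome 6 the 3 genes lie between 59.6 and 385 CPM.

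Summed over the 13 clade B genes, the level was 905, 939 and 769 CPM in ABS libraries and 774, 778 and 720 CPM in Ctrl libraries. *SERPINB2* made up 7.08%, 6.37% and 7.61% of that sum in ABS libraries, against 1.34%, 1.37% and 4.38% in Ctrl libraries. *SERPINB1* made up 44.5%, 44.0% and 44.2% in ABS libraries and 52.1%, 50.5% and 44.9% in Ctrl libraries. The *SERPINB2* share was higher in every ABS library, and the *SERPINB1* share was lower in every ABS library, with Ctrl replicate 3 nearest to them in both. The level of *SERPINB1* itself overlapped between groups, as given above, so its lower share is not a lower level.

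Ctrl replicate 3 stood above both other Ctrl libraries in 4 of the 9 members (*PLAU*, *PLAUR*, *SERPINB2* and *SERPINB5*) and below both in 4 (*PLAT*, *SERPINE2*, *SERPINB1* and *SERPINB6*). Over all tested genes it was above in 38.7% and below in 37.2%. ABS replicate 3 was below both other ABS libraries in 8 of the 9, *PLAU* being the exception, against 38.0% of all tested genes. These replicate 3 values move with the size of the *PLAU*, *PLAUR*, *SERPINB2* and *SERPINB5* differences, and their part in those differences was not tested.

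Of the 5 genes whose log2 CPM, centred over the 6 libraries, was closest to that of *PLAU*, 4 are named here, *CD274*, *CAMSAP1*, *OVOL1* and *ZNF777*. The root mean square difference of each from *PLAU* was between 0.04 and 0.05 on the log2 scale, among 9712 candidates. *CD274*, which encodes the immune checkpoint ligand PD-L1, measured 28.3, 27.3 and 31.7 CPM in ABS libraries and 20.1, 18.9 and 27.5 CPM in Ctrl libraries. *OVOL1*, which encodes an epithelial zinc finger transcription factor, measured 30.6, 30.1 and 30.6 CPM in ABS libraries and 21.999, 22.098 and 29.219 CPM in Ctrl libraries. None of the 4 passed the edgeR threshold. For *SERPINB2* the closest were *MT2A* (0.25), *CTGF* (0.32), *MT1X* (0.47), *OSGIN1* (0.47) and *PTGS2* (0.49). *CTGF*, a matricellular protein gene, measured 15.5, 15.03 and 14.7 CPM in ABS libraries and 3.36, 3.96 and 13.8 CPM in Ctrl libraries. In all 5, as in *SERPINB2*, Ctrl replicate 3 was the highest Ctrl library, and *MT2A*, *MT1X* and *OSGIN1* passed the threshold. Both traits were favoured by choosing the genes for closeness to *SERPINB2* over the same 6 libraries, so nothing is read from them.

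Among 21 genes for plasminogen, its binding proteins, inhibitors and clearance receptors, 12 were tested and 0 passed with edgeR, DESeq2 or limma-voom, while 1 had an unadjusted p under 0.05. *PLG*, which encodes plasminogen itself, had 0 counts in every library, and *VTN*, the vitronectin gene, had 1 count in 1. RNA levels differed widely between the genes for plasminogen-binding proteins, and the 3 with the highest mean CPM are given here. *ANXA2*, encoding annexin A2, was at 2267, 2314 and 2350.2 CPM in ABS libraries and 2293, 2309 and 2319 CPM in Ctrl libraries, a log2 fold change of 0.00 ± 0.06 (SE). *ENO1*, the enolase 1 gene, had −0.04 ± 0.08, and *KRT8*, keratin 8, had 0.00 ± 0.07. The median log2 fold change of the 12 was −0.06. In 1 of the 12, *VLDLR*, the ABS values lay wholly below the Ctrl values, and in 0 wholly above.

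Of 18 coagulation and contact genes 8 were tested and 0 passed with edgeR or limma-voom, 1 passed with DESeq2 (*F2RL1*), and 2 had an unadjusted p under 0.05. Their median log2 fold change was −0.09. *F2RL1*, the gene of protease-activated receptor 2, was at 423, 459 and 337 CPM in ABS libraries and 320.5, 303 and 333 CPM in Ctrl libraries. All ABS values lay above all Ctrl values, narrowly in replicate 3, and the fitted difference was 0.35 ± 0.10 on the log2 scale (SE), at an edgeR adjusted p of 0.187. *THBD*, the thrombomodulin gene, was at 214, 226 and 139 CPM in ABS libraries and 128, 124 and 78.5 CPM in Ctrl libraries. Its groups did not overlap either, at 0.81 ± 0.19 (SE) and an edgeR adjusted p of 0.102. *F3*, encoding tissue factor, was the most abundant of the list at 1181, 1144 and 1227 CPM in ABS libraries and 926, 969 and 1373 CPM in Ctrl libraries. Its highest library was Ctrl replicate 3, and its log2 fold change was 0.12 ± 0.12 (SE).

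The remaining families gave 0 calls with edgeR, DESeq2 or limma-voom. In the family of LY6 and uPAR domains, 7 of 19 genes were tested, with a median of 0.15 and 1 unadjusted p under 0.05. *CD59*, a complement inhibitor on the cell surface, was at 464, 484 and 454 CPM in ABS libraries and 416, 421 and 431 CPM in Ctrl libraries, with no overlap and an edgeR adjusted p of 0.493. *LY6E* had a log2 fold change of −0.12 and *PSCA* one of 0.21. Among membrane serine proteases and Kunitz inhibitors, 11 of 14 were tested, with a median of 0.01 and 1 unadjusted p under 0.05. *SPINT2* and *SPINT1*, inhibitors of such proteases, had −0.04 and 0.01, and *ST14*, encoding matriptase, had 0.04. In *ST14* the ABS values lay wholly above the Ctrl values, and in *PRSS22* and *PRSS8* wholly below. *PRSS8* was the gene with the unadjusted p under 0.05. Its log2 fold change was −0.34, at an edgeR adjusted p of 0.262. Among proteases that clade B serpins inhibit and their relatives, 10 of 15 were tested, with a median of −0.11 and 1 unadjusted p under 0.05. *KLK6*, a kallikrein gene, had −0.12, *FURIN*, encoding the target of the *SERPINB8* product, had −0.18, and *KLK10* had −0.11. The ABS values of *KLK6* lay wholly below the Ctrl values, at 444, 458 and 490.5 CPM against 498, 491.6 and 519 CPM. Its edgeR adjusted p was 0.632. In 1 other gene of this list, *CTSS*, the ABS values lay wholly above the Ctrl values. *ELANE* and *CTSG*, encoding targets of the *SERPINB1* product, had 0 counts in every library. Of 21 serpins of other clades 6 were tested, with a median of 0.13 and 1 unadjusted p under 0.05, and *SERPINH1*, a collagen chaperone gene, had 0.04. *SERPINF2*, encoding the plasmin inhibitor alpha 2-antiplasmin, was at 3.22, 4.76 and 2.98 CPM in ABS libraries and 4.20, 6.32 and 5.54 CPM in Ctrl libraries, with overlap and an edgeR adjusted p of 0.485.

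**Figure D4:**
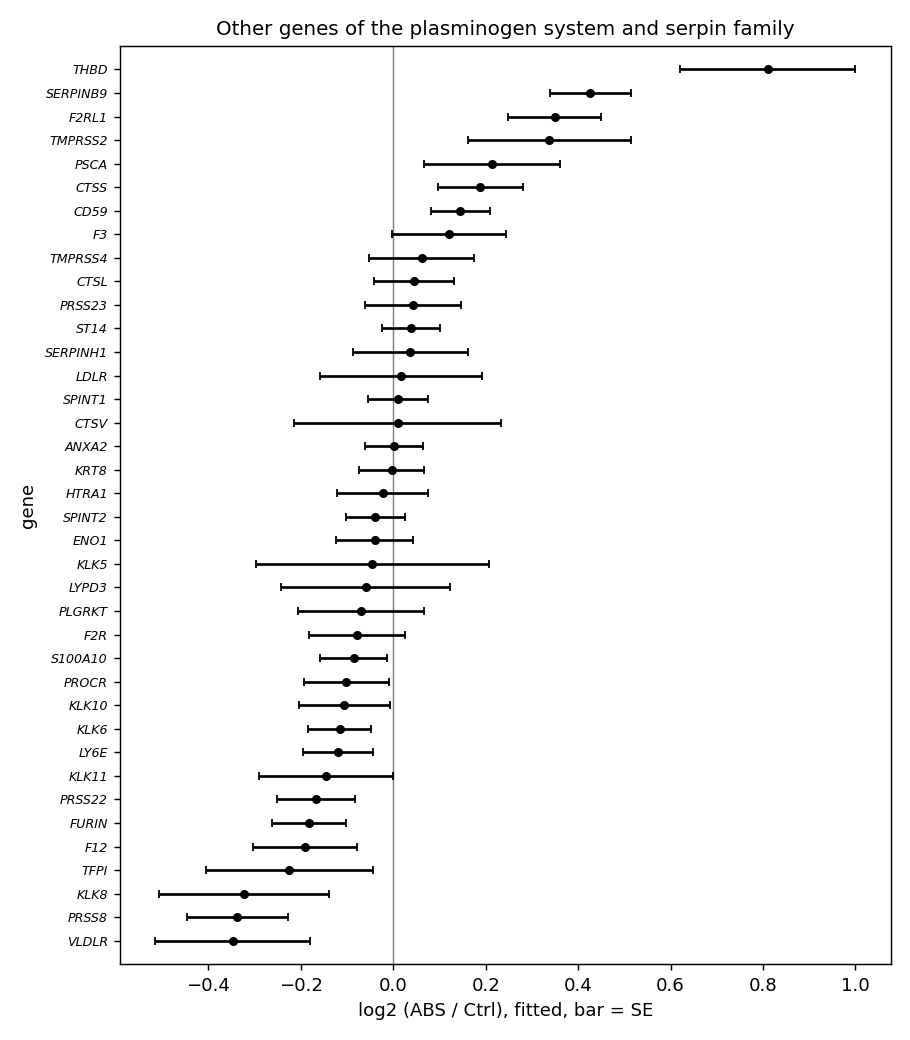
Fitted log2 ratio of ABS over Ctrl with SE for 38 tested genes of the other lists with a mean of at least 5 CPM. None passed the edgeR threshold, and the values run between −0.35 for *VLDLR*, a receptor gene, and 0.81 for *THBD*.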

How the data were processed

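Polyadenylated RNA of 3 ABS and 3 Ctrl cultures was sequenced. The file the authors deposited gives raw counts for each gene, made with HISAT2 2.0.5 and featureCounts 1.5.0-p3 on GRCh38, per the submitters' processing notes. The 58735 identifiers matched GENCODE release 29, with the same positions for the 9 members. Genes were kept by filterByExpr (minimum count 10, minimum total 15). Counts were TMM-scaled and tested with edgeR 4.0.16 in R 4.3.3 by a quasi-likelihood F-test with group as the only term, with Benjamini-Hochberg adjustment over 13768 genes and a threshold of 0.05. The SE of a log2 fold change is its size over the square root of F. Within-replicate differences use log2 CPM with a prior count of 2. DESeq2 1.42.0, limma-voom 3.58.1 and further alternatives were run, and the procedure was tested on simulated data. No replicate was made to stand apart in the simulated data, so that test does not cover the replicate 3 libraries. Promoters are from RefSeq, and 8 of the 9 members had one. The gene lists and members were chosen with earlier results of these data known. Named were all members, and from each list the called genes or, with 0 called, the 3 with the highest mean CPM. Genes at or near 0, marker genes, overlapping genes and genes of the clusters were named outside this rule, after their values were seen. So were *VLDLR*, *PRSS8*, *PRSS22* and *CTSS*. A few genes that the rule would name are not reported here.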

Additional observations from a re-analysis of the deposited data

How the results depend on the processing

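The main fit called 60 genes, 0.436% of those tested. The count was 264 (1.92%) with DESeq2, 35 (0.254%) with scaling by library size only and 409 (1.64%) with no filter on low counts. It was 465 (3.38%) with a term for the replicate 3 libraries and 1813 (13.2%) within replicates 1 and 2. The range was between 12 and 438 when single libraries were left out. Dropping ABS replicates 1, 2 or 3 gave 13 (0.0919%), 18 (0.127%) or 273 (1.94%) genes. Dropping Ctrl replicates 1, 2 or 3 gave 17 (0.12%), 12 (0.0845%) or 438 (3.1%). Of the 9 members, 1 passed, against 3 with DESeq2, 0 with library size alone, 5 if low counts were kept, 4 with the replicate 3 term and 5 within replicates 1 and 2. It was 4 without ABS replicate 3 (*PLAUR*, *SERPINB2*, *SERPINB5*, *SERPINB8*), where 1.94% of genes passed. Without Ctrl replicate 3 it was also 4 (*PLAU*, *PLAUR*, *SERPINB2*, *SERPINB8*), where 3.1% passed, and it was 0 without each other library. The shares of all tested genes given above apply to these counts and to those of the lists below. No member's sign turned where it was called. The replicate numbers paired ABS with Ctrl libraries only weakly, with correlations of 0.0425, 0.0333 and 0.167 between deviations of replicates 1, 2 and 3, and not every library correlated best with its own number. With a replicate block, 350 genes (2.54%) and 4 members (*PLAU*, *PLAUR*, *SERPINB2*, *SERPINB8*) passed. The single tested gene of the other clade B serpins, *SERPINB9*, passed (1 instead of 0) without a filter, with DESeq2, with the replicate block, with the replicate 3 term and within replicates 1 and 2, and the range over libraries left out was 0 to 1. For coagulation genes the count of 0 was 2 without a filter, 1 with DESeq2, 2 with the replicate block, 2 with the replicate 3 term, 4 within replicates 1 and 2, and 0 to 2 with libraries left out. The LY6 and uPAR family gave 2 within replicates 1 and 2. The membrane proteases gave 1 without a filter, 1 within replicates 1 and 2, and 0 to 1 with libraries left out, and the proteases inhibited by clade B serpins gave 1 within replicates 1 and 2. The gene was *PRSS8* in the former list and *FURIN* in the latter, both lower after ABS. Leaving out libraries because they stand apart lowers the spread by construction, and the cause of the other shifts was not tested. With 182 counts at the least for *SERPINE2* and 161 for *SERPINB8* in a library, these are the members where counting error is largest.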
